A study of Mus musculus with 6 samples.

Results

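The genes described here are 10 targets of the transcriptional coactivator Yap that do not belong to the CCN family: Ajuba, Amotl1, Amotl2, Ptpn14, Axl, Crim1, Nt5e, Fjx1, Arhgef17 and Gadd45b. They were taken by gene symbol from a table of 17556 genes, each matched a single row, and all 10 were among the 13817 genes with enough counts to be tested. Bulk RNA-seq was performed on mouse left ventricles collected 4 days after myocardial infarction (MI), which was produced by tying off the left anterior descending artery for good in mice aged 6 to 10 weeks. The 3 Cre-positive libraries came from mice with floxed Yap (both alleles), floxed Wwtr1 (one allele) and a copy of MerCreMer under the endogenous Postn promoter, where MerCreMer is a Cre recombinase that tamoxifen activates. The 3 Cre-negative libraries came from siblings with the same floxed alleles and wildtype Postn. Both genotypes received MI and a tamoxifen citrate diet from the time of surgery. The comparison is thus of RNA of the whole injured ventricle with and without Cre in Postn-expressing myofibroblasts. The groups differ in recombination of the floxed alleles, in the presence of MerCreMer and in the Postn allele. No ventricle carried MerCreMer without floxed alleles, so these cannot be told apart. The Postn promoter drives the Cre in myofibroblasts, whereas RNA came from all cells of the ventricle, and in such bulk samples fewer cells of a type and less RNA per cell cannot be told apart. The labels do not say whether each library came from a single animal, and p-values therefore measure the spread between these libraries.

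Yap and its paralog Taz, encoded by Wwtr1, enter the nucleus when the Hippo kinases Lats1 and Lats2 are inactive, and there bind TEAD factors on DNA to switch on target genes. Several targets act back on the pathway: the motins and Ptpn14 hold Yap outside the nucleus, whereas the LIM protein Ajuba restrains the Lats kinases. Other targets encode proteins of the cell surface or the secretory route, such as the receptor Axl and the ectoenzyme Nt5e. In the injured heart Yap and Taz are best known for roles in cardiomyocyte growth and in the activation of fibroblasts.

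Total estimated counts per ventricle ranged from 13177888 to 14827579. Yap1 itself had a log2 fold change (log2FC, Cre-positive over Cre-negative) of 0.03 (SE 0.09, edgeR quasi-likelihood test, adjusted p = 0.935) and Wwtr1 one of 0.05 (SE 0.08, adjusted p = 0.876), on counts of the whole gene that do not single out the floxed exons. Postn, the driver gene, had a log2FC of -0.66 (SE 0.27, adjusted p = 0.714). Its normalized counts, which are counts scaled to a common library size, were 12157, 24639 and 26862 in the Cre-negative ventricles and 12682, 14240 and 13486 in the Cre-positive ventricles. All 8 general cardiomyocyte markers were detected in every library. The summed level of 4 atrial markers was 6881 to 9833 TPM in 5 ventricles and 16600 TPM in Cre-positive ventricle 1. Nppa made up most of this sum, at 6634 to 14404 TPM. The others varied more widely: Myl7 ranged from 18.1 to 611 TPM, Myl4 from 31.9 to 1268 TPM and Sln from 5.04 to 318 TPM. Each of these was lowest in Cre-positive ventricle 2 and highest in Cre-positive ventricle 1. Myl4 was also high in Cre-negative ventricles 1 and 2, at 626 and 509 TPM. The summed cardiomyocyte marker level was 59509 to 72180 TPM, the deposited share of transcripts corrected for length, in Cre-negative and 52746 to 58702 TPM in Cre-positive ventricles, without overlap, and the log2FC of 0 of the 8 genes was positive. Cre-negative ventricle 1 stood apart: it had the highest summed cardiomyocyte markers (72180 TPM) and neutrophil markers (415 TPM, against 48.4 to 156 TPM in the other ventricles). It also had the lowest summed levels of fibroblast markers (4511 TPM, others 6469 to 8337 TPM), myofibroblast markers (1220 TPM, others 2338 to 2777 TPM) and macrophage markers (1683 TPM, others 2173 to 2696 TPM). Without this ventricle the log2FC of Postn was -0.94 (SE 0.08, edgeR adjusted p = 0.0182). This omission was picked after the values were seen, and no other is given for Postn. The Postn allele itself differs between the genotypes, because MerCreMer is under its promoter. The part of that allele in the Postn values was not tested.

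Because TEAD factors recognise a short DNA element, the sequence in front of the targets was examined. RefSeq promoter windows (GRCm38.p6, 250 bases before to 50 bases after a listed gene start) were found for 8 of the 10 genes, with Fjx1 and Arhgef17 unmatched. The TEAD element GGAATG, searched on both strands so that it may read CATTCC, occurred in the windows of 5 of these 8 genes. The same element occurred in 14.7% of all 32851 windows, and in 16.6% of genes with a window. The AP-1 element TGANTCA, also searched on both strands, occurred in 0 of the 8 windows and in 7.81% of all windows. A match is a string of letters and not a measured binding site. The 250 bases before the start are printed for the 5 genes that held the element, 5' to 3' on the strand of the gene, with the element in capitals.
Ajuba: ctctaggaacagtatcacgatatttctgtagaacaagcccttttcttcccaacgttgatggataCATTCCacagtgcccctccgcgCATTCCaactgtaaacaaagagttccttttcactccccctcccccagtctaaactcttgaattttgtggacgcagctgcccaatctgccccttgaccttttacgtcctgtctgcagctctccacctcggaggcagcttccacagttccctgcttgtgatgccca
Amotl2: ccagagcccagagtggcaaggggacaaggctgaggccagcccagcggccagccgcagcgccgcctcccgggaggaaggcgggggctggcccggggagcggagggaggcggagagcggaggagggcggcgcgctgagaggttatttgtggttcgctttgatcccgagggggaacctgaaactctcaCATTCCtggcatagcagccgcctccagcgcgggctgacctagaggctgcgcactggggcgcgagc
Ptpn14: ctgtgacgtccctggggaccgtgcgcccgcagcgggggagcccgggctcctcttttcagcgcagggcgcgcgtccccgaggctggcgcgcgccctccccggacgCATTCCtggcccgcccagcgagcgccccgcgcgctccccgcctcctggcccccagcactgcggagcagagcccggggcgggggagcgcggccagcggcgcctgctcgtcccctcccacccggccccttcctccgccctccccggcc
Axl: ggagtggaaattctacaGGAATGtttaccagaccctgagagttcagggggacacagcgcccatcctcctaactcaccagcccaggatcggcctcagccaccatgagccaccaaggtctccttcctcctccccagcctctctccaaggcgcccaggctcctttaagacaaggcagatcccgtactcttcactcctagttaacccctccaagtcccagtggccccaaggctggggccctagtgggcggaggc
Crim1: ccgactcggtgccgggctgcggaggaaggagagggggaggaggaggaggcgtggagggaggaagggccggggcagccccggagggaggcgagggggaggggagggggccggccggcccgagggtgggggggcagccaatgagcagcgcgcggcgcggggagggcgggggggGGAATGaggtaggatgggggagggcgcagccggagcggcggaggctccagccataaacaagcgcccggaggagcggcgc
The Ajuba stretch is chr14:54577662-54577911 on the minus strand, and its copies, which do not overlap, begin 186 and 164 bases before the start. The Amotl2 stretch is chr9:102717554-102717803 on the plus strand with the element 65 bases before the start, and the Ptpn14 stretch is chr1:189728018-189728267 on the plus strand with the element 146 bases before it. The Axl stretch is chr7:25788734-25788983 on the minus strand with the element 233 bases before the start. The Crim1 stretch is chr17:78199998-78200247 on the plus strand with the element 79 bases before the start. Each window surrounds the start of one listed transcript, which for Axl, Amotl2, Ptpn14 and Crim1 lies 191, 713, 52 and 15 bases inside the outermost end of the annotated gene. For Amotl1 it lies 47974 bases inside the gene, so the sequence before the outermost Amotl1 start was not searched. The windows of Amotl1, Nt5e and Gadd45b held neither element.

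On the TPM scale, which is per transcript length, the targets covered a wide range of levels. Axl was highest, with 112 to 149 TPM over the 6 ventricles, above 91.4% of the genes tested. Amotl2 followed with 32.9 to 44.1 TPM, and Gadd45b with 12.4 to 35.3 TPM. Amotl1 (17.0 to 21.8 TPM), Arhgef17 (17.7 to 21.2 TPM), Crim1 (14.4 to 21.5 TPM), Nt5e (12.5 to 15.7 TPM) and Ajuba (7.41 to 16.7 TPM) lay close together. Ptpn14 (7.56 to 10.8 TPM) and Fjx1 (3.47 to 5.36 TPM) were lowest, and Fjx1 exceeded only 22.5% of the genes tested. Axl was above Amotl2, and Ptpn14 above Fjx1, in 6 of 6 ventricles. The other neighbours in this order traded places in at least 1 ventricle: Amotl1 was above Arhgef17 in 3 of 6 ventricles, as was Nt5e above Ajuba, and the remaining pairs kept their order in 5 of 6.

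**Figure D1:**
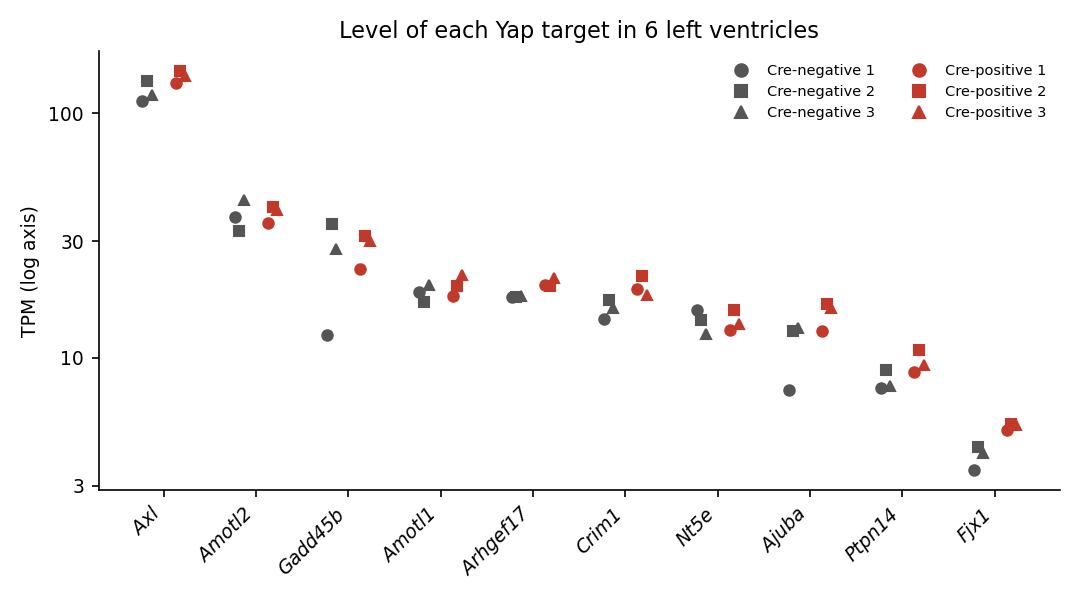
TPM of each of the 10 targets (log axis) in each of the 6 left ventricles, with genes ordered by mean level; grey symbols are Cre-negative, red symbols Cre-positive, and the symbol shape gives the replicate number. Axl stands above all other targets at 112 to 149 TPM, Fjx1 is lowest, and Cre-negative ventricle 1 lies below the other ventricles for Gadd45b and Ajuba.

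None of the 10 targets passed the test between genotypes after adjustment over all genes tested. edgeR's quasi-likelihood test called 0 of the 10 at an adjusted p under 0.05, where it called 0.00724% of all genes, which is a single gene (Gbp2b, named here after its value was seen). The adjusted p of the targets ranged from 0.714 to 0.967. At an unadjusted p under 0.05, 1 of the 10 was higher in Cre-positive ventricles (Crim1) against 2.85% of all genes, and 0 were lower against 2.98%. DESeq2 and limma on log2(TPM + 1) likewise called 0 targets. They gave 0 and 2 targets at an unadjusted p under 0.05, where 812 and 999 of the 13817 genes tested had one. The log2FC was positive for 7 of the 10 targets and for 51.2% of all genes, and the median was 0.08 for the targets and 0.01 for all genes. On log2(TPM + 1) with limma, which also shifted the median of all genes to 0.11, 9 of the 10 were positive against 73.1% of all genes. The lower bounds of the 95% intervals lay between -0.64 (Gadd45b) and 0.00 (Crim1). Fibroblast markers had the sign of most targets, with 7 of 8 log2FC positive (median 0.17) and summed levels of 4511 to 7259 TPM in Cre-negative and 7258 to 8337 TPM in Cre-positive ventricles, as did markers of myofibroblasts (5 of 6 positive, median log2FC 0.35), mural cells (5 of 6, 0.17), epicardium and mesothelium (4 of 4, 0.47), endothelium (5 of 6, 0.05), macrophages (5 of 8, 0.09), T cells (3 of 3 tested, 0.48) and B cells (4 of 4, 0.40). The T cell markers were near the floor, at summed levels of 2.88 to 8.89 TPM in Cre-negative and 5.58 to 14.5 TPM in Cre-positive ventricles. Only 3 of the 6 listed T cell genes were tested. Summed B cell markers were 10.4 to 41.6 TPM in Cre-negative ventricles. They were lowest of all in Cre-positive ventricle 2 (7.22 TPM) and highest in Cre-positive ventricle 3 (60.7 TPM). Of the neutrophil markers 1 of 5 was positive. The part of these markers and of the lower cardiomyocyte markers in the targets' values was not tested.

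Groups did not overlap for 2 of the 10 targets, Crim1 and Fjx1, both higher in Cre-positive ventricles, where 7.55% of all genes did so. No target was lower without overlap, against 6.85% of all genes. The count was 5 of 10 (Crim1, Fjx1, Ptpn14 and Axl higher, Amotl2 lower) without Cre-negative ventricle 2, in a comparison of 3 against 2 where 12.9% of all genes were higher and 11.7% lower without overlap. On TPM it was 3 of 10, all higher, against 14.97% of all genes. With 3 ventricles in each group, the exact two-sided permutation test cannot give a p under 0.1.

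**Figure D2:**
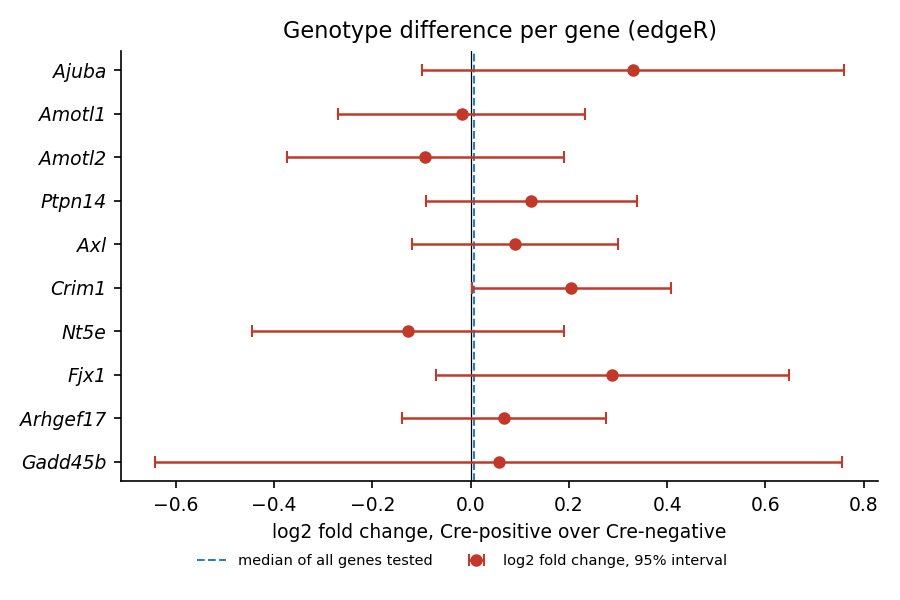
Log2FC of each target, Cre-positive over Cre-negative, from edgeR, with bars for the 95% interval; the dashed line is the median of all genes tested. Every interval but that of Crim1 spans 0, and Gadd45b has the widest interval, from -0.64 to 0.76.

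Among the feedback regulators of the pathway, Ajuba had the largest log2FC of the 10 targets. Ajuba (NCBI gene 16475, chr14:54567469-54577661 on GRCm38.p6) encodes a LIM-domain scaffold that restrains Lats kinases, and it is the gene with 2 TEAD elements above. Its normalized counts were 223, 349 and 356 in the Cre-negative ventricles and 346, 415 and 409 in the Cre-positive ventricles. Cre-negative ventricle 1 was far below the rest, and Cre-positive ventricle 1 lay just below the other Cre-negative values, so the groups overlapped. The means were 309.7 ± 74.8 and 390.2 ± 38.2 (SD, n = 3 each), a log2FC of 0.33 (SE 0.18, edgeR adjusted p = 0.714, exact permutation p = 0.3). Without Cre-negative ventricle 1 the log2FC was 0.14 (edgeR adjusted p = 0.842). The part of that ventricle's low fibroblast and myofibroblast markers in this value was not tested.

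The motins Amotl1 and Amotl2 bind Yap at cell junctions and along actin filaments, and both had log2FC near 0. Amotl1 (NCBI gene 75723, chr9:14541966-14662974) had normalized counts of 1446, 1179 and 1382 in the Cre-negative and 1249, 1265 and 1441 in the Cre-positive ventricles. The Cre-positive values lay inside the Cre-negative range, with a log2FC of -0.02 (SE 0.11, 95% interval -0.27 to 0.23, edgeR adjusted p = 0.967). Amotl2 (NCBI gene 56332, chr9:102717091-102733418) had normalized counts of 1369, 1070.2 and 1431 in the Cre-negative and 1151, 1242 and 1238 in the Cre-positive ventricles. The Cre-positive values sat close together inside the Cre-negative range, with coefficients of variation (CV) of 4.23% and 14.97%. The log2FC of Amotl2 was -0.09 (SE 0.12, 95% interval -0.37 to 0.19, edgeR adjusted p = 0.825). It was -0.21 without Cre-negative ventricle 2, the lowest of the 6, and -0.0098 without Cre-negative ventricle 3, the highest. On log2(TPM + 1) both motins had small positive values, 0.09 and 0.04, below the median of 0.11 that all genes had there, and with DESeq2 size factors both stayed negative, at -0.03 and -0.10. Amot, the third motin, was expressed at a lower level (2.83 to 4.98 TPM) than Amotl1 and Amotl2 in the ventricles.

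Ptpn14 (NCBI gene 19250, chr1:189728216-189876695), a cytoplasmic tyrosine phosphatase that binds Yap, had normalized counts of 708, 747 and 646 in the Cre-negative ventricles. In the Cre-positive ventricles they were 725, 821 and 741. The highest value was Cre-positive ventricle 2, but the groups overlapped, since Cre-negative ventricle 2 exceeded Cre-positive ventricles 1 and 3. The log2FC was 0.12 (SE 0.09, 95% interval -0.09 to 0.34, edgeR adjusted p = 0.724, exact permutation p = 0.3). It was 0.07 without Cre-positive ventricle 2 or without Cre-negative ventricle 3, and at most 0.17 when another ventricle was left out. Its closest relative Ptpn21 had a higher level, 14.9 to 17.5 TPM against 7.56 to 10.8 TPM for Ptpn14.

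Among the targets of the cell surface, Crim1 had the smallest unadjusted p. Crim1 (NCBI gene 50766, chr17:78200233-78376592) encodes a transmembrane protein that binds bone morphogenetic proteins. Normalized counts of Crim1 were 676, 679.8 and 633 in the Cre-negative ventricles and 788, 805 and 699 in the Cre-positive ventricles. All 3 Cre-positive values exceeded all 3 Cre-negative values, the smallest gap being that between Cre-positive ventricle 3 and Cre-negative ventricle 2. The means were 663 ± 25.9 and 764 ± 56.9 (SD, n = 3 each), a 1.15-fold difference. The log2FC was 0.20 (SE 0.09) with an unadjusted edgeR p of 0.0481, an adjusted p of 0.714 and an exact permutation p of 0.1. With DESeq2 the unadjusted p was 0.0883, and the leave-one-out log2FC lay between 0.17 and 0.26. Crim1 therefore did not pass the test over all genes.

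Axl (NCBI gene 26362, chr7:25756500-25788924) is a TAM-family receptor tyrosine kinase that responds to the ligand Gas6 and takes part in the clearance of dying cells. In the Cre-negative ventricles Axl had normalized counts of 4000.1, 4303 and 3792, and in the Cre-positive ventricles 4209, 4377 and 4293. The Cre-positive values were tightly grouped (CV 1.96%, against 6.38%), and Cre-negative ventricle 2 lay among them. The log2FC was 0.09 (SE 0.09, 95% interval -0.12 to 0.30, edgeR adjusted p = 0.774), and it was 0.05 without Cre-negative ventricle 3 and 0.14 without Cre-negative ventricle 2. Axl was the most abundant TAM receptor: Mertk was at 8.22 to 11.4 TPM and Tyro3 at 2.91 to 7.16 TPM. The ligand gene Gas6 was at 167 to 229 TPM.

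Nt5e (NCBI gene 23959, chr9:88327609-88372089) encodes CD73, the ectoenzyme that turns extracellular AMP into adenosine. For Nt5e, normalized counts were 482, 394 and 346 in the Cre-negative ventricles and 357, 399.7 and 360.2 in the Cre-positive ventricles. Cre-negative ventricle 1 was the highest for this gene, and the groups overlapped. The log2FC was -0.13 (SE 0.14, 95% interval -0.44 to 0.19, edgeR adjusted p = 0.786), and without Cre-negative ventricle 1 it was 0.01. On TPM the group means were nearly equal, 14.1 ± 1.55 and 14.1 ± 1.39 (SD, n = 3 each). On log2(TPM + 1) the log2FC of Nt5e was -0.00045, below the median of 0.11 that all genes had there.

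Fjx1 (NCBI gene 14221, chr2:102449366-102451792), the mouse homolog of the Drosophila gene four-jointed, had the lowest level of the 10 targets. Its normalized counts were 71.7, 80.4 and 75.7 in the Cre-negative ventricles and 93.5, 91.4 and 93.7 in the Cre-positive ventricles. The groups did not overlap, and the Cre-positive values lay within 3 counts of each other. Their CV of 1.41% was below the 10.8% that counting error alone gives at this depth. The means were 76.0 ± 4.37 and 92.9 ± 1.31 (SD, n = 3 each), a 1.22-fold difference, and the log2FC was 0.29 (SE 0.15, 95% interval -0.07 to 0.65). The edgeR p was 0.1 before and 0.714 after adjustment, and the exact permutation p was 0.1. The leave-one-out log2FC of Fjx1 lay between 0.25 and 0.33.

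The intracellular targets were Arhgef17 and Gadd45b. Arhgef17 (NCBI gene 207212, chr7:100869746-100932161) encodes a guanine nucleotide exchange factor. Arhgef17 had normalized counts of 1597, 1430.2 and 1435 in the Cre-negative ventricles and 1590.3, 1464 and 1624 in the Cre-positive ventricles. Cre-negative ventricle 1 lay among the Cre-positive values, and the log2FC was 0.07 (SE 0.09, 95% interval -0.14 to 0.28, edgeR adjusted p = 0.824). The log2FC of Arhgef17 was 0.12, with no overlap of the groups, without Cre-negative ventricle 1. It was 0.11 without Cre-positive ventricle 2 and 0.04 without Cre-positive ventricle 3, Cre-negative ventricle 2 or Cre-negative ventricle 3. On TPM the groups did not overlap, with 17.7 to 17.9 TPM in Cre-negative and 19.7 to 21.2 TPM in Cre-positive ventricles, a scale on which 73.1% of all genes had a positive difference.

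Gadd45b (NCBI gene 17873, chr10:80930091-80932204), a stress-inducible regulator of p38 signaling and growth arrest, varied most between ventricles. Gadd45b had normalized counts of 129, 329.6 and 258 in the Cre-negative ventricles and 214, 269.5 and 266 in the Cre-positive ventricles. Cre-negative ventricles held both the lowest and the highest value, with a CV of 42.5% against 12.4% in the Cre-positive ventricles. The log2FC was 0.06 (SE 0.30, 95% interval -0.64 to 0.76, edgeR adjusted p = 0.962). Without Cre-negative ventricle 1 it was -0.24 and without Cre-negative ventricle 2 it was 0.36. On the fold scale the interval with all ventricles runs from 0.641 to 1.69.

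**Figure D3:**
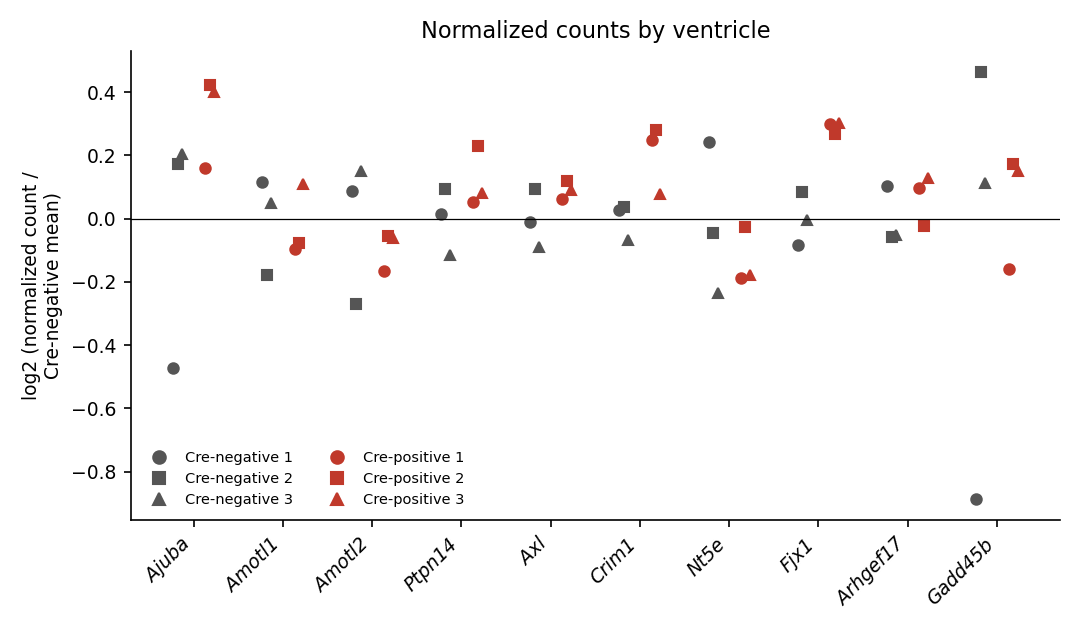
Normalized count of each target in each ventricle as a log2 ratio to the Cre-negative mean of that gene; grey symbols are Cre-negative, red symbols Cre-positive, and the shape gives the replicate number. Crim1 and Fjx1 are the genes whose red symbols all lie above the grey ones, and Cre-negative ventricle 1 is far below the others for Ajuba and Gadd45b.

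The ventricles were also compared across the 10 targets. For all 10 targets the lowest normalized count was in a Cre-negative ventricle, which was so for 55.9% of all genes tested. The lowest value was in Cre-negative ventricle 1 for 3 targets, in ventricle 2 for 3 and in ventricle 3 for 4, so that no single ventricle set this pattern. The highest value was in a Cre-positive ventricle for 6 of the 10 targets and for 45.5% of all genes, and Cre-positive ventricle 2 held 4 of them. These counts were made after the values were seen and carry no test. Leaving out each ventricle in turn gave 0 targets called each time, and Ptpn14, Axl, Crim1, Fjx1, Arhgef17 and Ajuba kept a positive log2FC in all 6 of these fits.

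**Figure D4:**
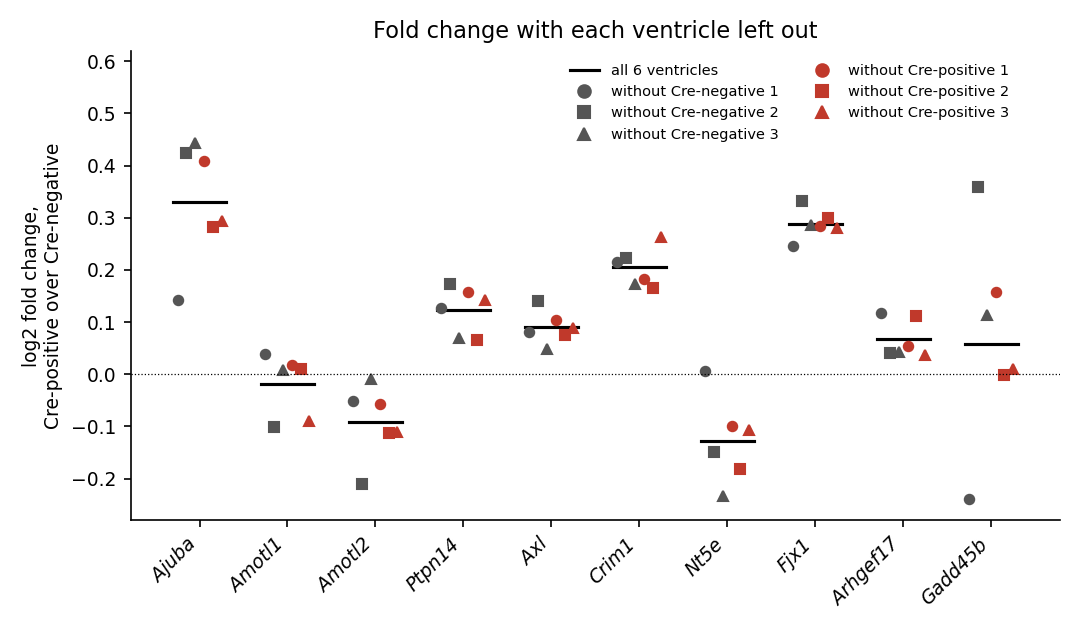
Log2FC of each target with all 6 ventricles (black line) and with each ventricle left out in turn (symbols: colour for the genotype and shape for the replicate number left out). Ajuba moves to 0.14 and Gadd45b to -0.24 without Cre-negative ventricle 1, whereas Crim1 and Fjx1 stay between 0.17 and 0.33.

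The wider pathway was read from 12 lists with 80 other genes, of which 79 were tested. edgeR called 0 of them at an adjusted p under 0.05. At an unadjusted p under 0.05, 4 of the 79 were higher (Lats2, Tgfb2, Vgll3 and Mob1a) and 1 was lower (Limd1), beside the 2.85% and 2.98% of all genes. This count of 5 stood beside 806 of all 13817 genes tested. It was 10 without Cre-negative ventricle 1 (922 of 13995 genes tested) and 12 without Cre-negative ventricle 3 (1346 of 14002). Without Cre-positive ventricle 1 (556 of 13978) or 2 (375 of 13979) it was 3, and on log2(TPM + 1) it was 9 (999 of 13817). The log2FC was positive for 52 and negative for 27 of the 79, with a median of 0.06. Groups did not overlap for 9 higher genes and 1 lower gene, beside 7.55% and 6.85% of all genes. All adjusted p-values of the 79 genes were 0.714 or above.

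Other genes commonly listed as Yap targets had positive log2FC in 9 of 12 cases, with a median of 0.09. Tgfb2, a ligand of the TGF-beta pathway, had a log2FC of 0.48 (SE 0.16) without overlap between the groups, and Igfbp3, which binds insulin-like growth factors, one of 0.29 (SE 0.17). The CCN targets Ccn1 (listed as Cyr61) and Ccn2 (listed as Ctgf) had log2FC of 0.42 (SE 0.18) and 0.38 (SE 0.20), with Cre-negative ventricle 1 lowest for both. Without that ventricle the log2FC was 0.24 for Ccn1, 0.20 for Ccn2, 0.31 for Tgfb2 and 0.49 for Igfbp3, and 7 of the 12 were positive with a median of 0.03. None of these passed the adjusted test with or without it.

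Among Yap, Taz and their nuclear partners, 8 of 8 genes had a positive log2FC, as had 51.2% of all genes, with a median of 0.07. The largest were those of Vgll3 (0.30, SE 0.12), a cofactor of TEAD, and Tead3 (0.16, SE 0.08). Of the Hippo kinases and adaptors 11 of 12 were positive with a median of 0.18, and 4 of these did not overlap between the groups, beside 7.55% of all genes. Wwc1 had the largest value (1.03, SE 0.51) at a level of only 0.11 to 0.59 TPM, and Mob1a, a Lats cofactor, had 0.28 (SE 0.09). Without Cre-negative ventricle 1 the log2FC was 1.54 for Wwc1, 0.22 for Mob1a, 0.23 for Vgll3 and 0.13 for Tead3, and 7 of 8 nuclear partners and 10 of 12 Hippo genes were positive.

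Partners and relatives of the single targets had log2FC of both signs. Of the Axl partners 2 of 4 were positive, Tyro3 at 0.35 (SE 0.24) and Mertk at -0.14 (SE 0.14), and without Cre-negative ventricle 1 these were 0.11 and -0.24. Of the motin partners 4 of 6 were positive, with Amot at 0.36 (SE 0.16) and no overlap, and the ubiquitin ligase gene Nedd4l at -0.15 (SE 0.10). Without Cre-negative ventricle 1 these were 0.44 and -0.11, and 5 of 6 were positive. Of the Ajuba family 4 of 5 were positive, and the exception was Limd1, another LIM protein that binds Lats kinases, at -0.34 (SE 0.14), beside Wtip at 0.26 (SE 0.16), and without Cre-negative ventricle 1 these were -0.21 and 0.11. Limd1 was expressed at 23.6 to 33.5 TPM and Ajuba at 7.41 to 16.7 TPM.

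For the Ptpn14 relatives 2 of 4 were positive, with Ptpn3 at -0.32 (SE 0.19) and Ptpn13 at 0.17 (SE 0.24). Without Cre-negative ventricle 1 these were -0.11 and 0.48, and 3 of 4 were positive. For the Crim1 partners 3 of 6 were positive, with Bmp2 at 0.43 (SE 0.22) without overlap and Bmp7 at -0.16 (SE 0.37). Without Cre-negative ventricle 1 these were 0.21 and 0.17, and 5 of 6 were positive. In the adenosine pathway of Nt5e 4 of 8 were positive, with Enpp1, which makes AMP from ATP, at 0.46 (SE 0.31) and the adenosine receptor gene Adora3 at -0.39 (SE 0.31). Without Cre-negative ventricle 1 these were 0.14 and -0.25, and 2 of 8 were positive. Of the Gadd45 family and its partners in p38 signaling 0 of 6 were positive, with Map2k6 at -0.50 (SE 0.28) and Gadd45a at -0.06 (SE 0.19). Without Cre-negative ventricle 1 these were -0.69 and -0.17, and 3 of 6 were positive. On log2(TPM + 1), where 73.1% of all genes were positive, 5 of 6 genes of the Gadd45 list were positive, and with DESeq2 size factors 0 of 6 were. Gadd45g was at 37.7 to 56.6 TPM, Gadd45b at 12.4 to 35.3 TPM and Gadd45a at 11.95 to 18.7 TPM.

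**Figure D5:**
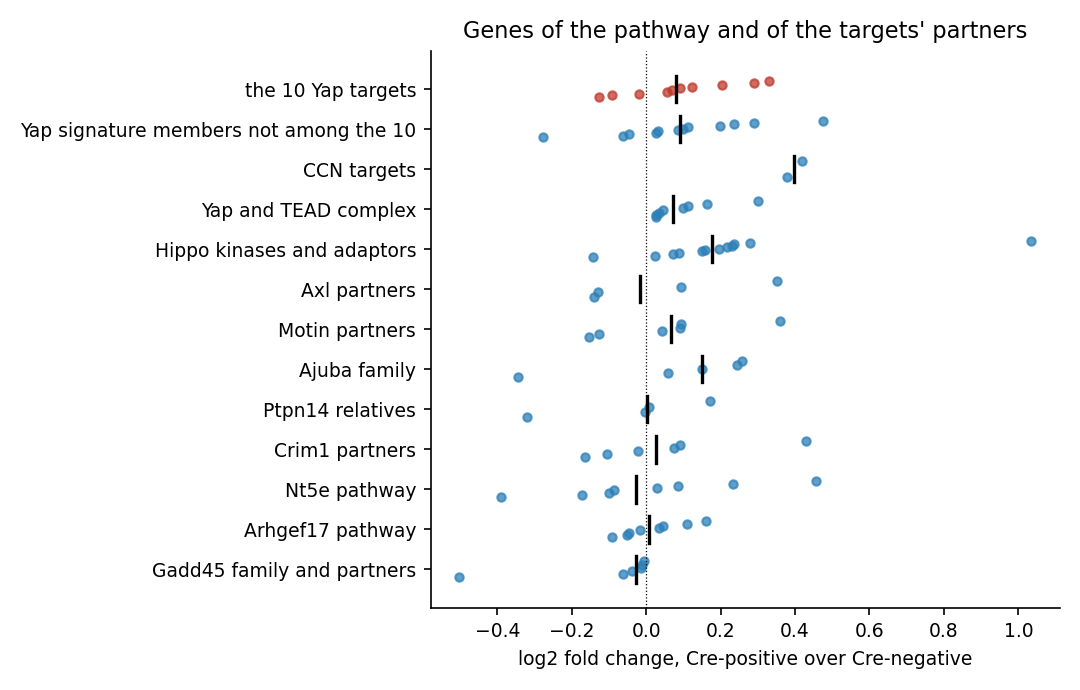
Log2FC of the 10 targets (red) and of the tested genes of 12 pathway and partner lists (blue), Cre-positive over Cre-negative; each point is a gene and each black bar the median of the list. The targets run from -0.13 to 0.33 with a median of 0.08, and the single point near 1.03 is Wwc1, a gene of very low level.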

How the data were processed

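Libraries of left ventricles, 3 Cre-positive and 3 Cre-negative, were sequenced. The submitters' processing notes name Bowtie2 2.2.5, RSEM 1.2.12 and the build GRCm38.p6, and say nothing of strand or filters used here. The authors deposited estimated counts (not normalized, 11.5% not whole), FPKM values (scaled to gene length and depth, not used) and TPM values per gene and ventricle. Deposited group averages and a DESeq2 comparison (log2 fold changes, p-values and q-values) were not used.

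Estimated counts were rounded and edgeR 4.0.16 was run in R 4.3.3: filterByExpr (minimum count 10, minimum total 15), TMM scaling, the quasi-likelihood test without covariates, and Benjamini-Hochberg adjustment over all 13817 genes tested with a threshold of 0.05. Normalized counts are at the mean library size of 14273417. Standard errors were derived from the F statistic. Exact permutation tests were two-sided over samples. The procedure was tested on simulated data in which every changed gene had a larger difference than any target here. That test does not show how often differences of the targets' size would be called.

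DESeq2 1.42.0, limma 3.58.1 on log2 TPM, other filters and scalings, a replicate term and leaving out each ventricle were alternatives. Groups came from the labels' Cre status. Figures were drawn with matplotlib 3.10.9 in Python 3.11.15. The 10 targets, the 12 pathway lists and the marker lists were chosen with earlier results of these data known. Named genes were all 10 targets, the 2 tested genes with the largest absolute log2 fold change in each list, and Yap1, Wwtr1 and Postn. Relatives given by TPM alone, and genes at an unadjusted p under 0.05, were named after their values were seen. Promoter sequences, gene positions and NCBI gene numbers were matched in RefSeq tables of GRCm38.p6. The genes of the Arhgef17 list are not reported here one by one. A planned count of PPxY motifs in proteins was not run.

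The number of counts limits the precision of low genes: with 61 to 99 counts of Fjx1 per ventricle, counting error alone is 10.8%.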

Additional observations from a re-analysis of the deposited data

How the results depend on the processing

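The number of targets called was 0 under all 13 alternatives, with the lowest adjusted p of the targets between 0.509 and 0.958, and the number of pathway genes called was 0 as well. The number of all genes called was 1, against 5 with DESeq2, 2 on log2(TPM + 1) and 2 on log2(TPM + 0.1) with limma, and 0 to 2 when 1 ventricle was left out: 2 without Cre-negative ventricle 1 and 0 without Cre-negative ventricle 3, Cre-positive ventricle 1 or Cre-positive ventricle 3. The median log2FC of the targets was 0.08, against 0.22 on log2(TPM + 1) and 0.23 on log2(TPM + 0.1), where that of all genes was 0.11 and 0.12, and 0.06 to 0.16 when 1 ventricle was left out. The number of targets without overlap was 2 to 5 when 1 ventricle was left out, where 10.9% to 14.9% of all genes were higher and 10.2% to 13.8% lower without overlap.

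Some targets near 0 changed sign. Amotl1 was 0.0930 on log2(TPM + 1), 0.0973 on log2(TPM + 0.1) and -0.10 to 0.0379 when 1 ventricle was left out, Amotl2 was 0.0359 and 0.0369 on these TPM scales, Nt5e was -0.23 to 0.00535 and Gadd45b -0.24 to 0.36 when 1 ventricle was left out. The cause was not tested. The other targets kept their direction under all 13 alternatives.

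With the replicate block, in which the replicate number is a term of the edgeR fit, 0 genes were called, 1217 genes and 2 targets had an unadjusted p under 0.05, and Ajuba had a log2FC of 0.35 (adjusted p = 0.562). The deviations of ventricles of the same number correlated at r = 0.34, 0.06 and -0.03. Between ventricles of unlike numbers r ran from -0.36 to 0.34. These values cannot tell whether the numbers pair the samples. Low counts limit Fjx1, and the spread between Cre-negative ventricles limits Ajuba and Gadd45b.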
